A study of Mus musculus with 6 samples.

Results

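The 9 genes described here are 5 members of the CCN family (Cyr61, Ctgf, Nov, Wisp1 and Wisp2), the transcriptional coactivators Yap1 and Wwtr1 (TAZ), and Ankrd1 and Amotl2, which are known as targets of these coactivators. They were taken by symbol from a table of 22162 genes, the CCN genes under their older names, and each of the 9 symbols matched 1 row. Poly(A) RNA was sequenced from mouse skin fibroblasts (MSFs) isolated from the dorsal skin of a female FASST mouse on the FVB/N background. All cells carry a tamoxifen (TAM)-inducible Cre-ERT2 driven by the pro-alpha 2(I) collagen promoter, together with an allele at ROSA26 from which Cre removes a stop cassette to switch on p27Kip1 and GFP. The 3 senescent libraries, as labelled, came from MSFs treated with 10 µM TAM for 48 h, and the 3 non-senescent libraries from MSFs given the ethanol vehicle, with both groups cultured at 3% oxygen. TAM-treated cells without the allele were not analysed here, so the activated allele and TAM itself cannot be told apart. The MSFs are described as coming from 1 mouse and no source says whether replicates were separate cultures, so p-values measure the spread between these samples, which may be technical.

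CCN proteins are secreted matricellular proteins that bind integrins, proteoglycans and growth factors and modulate adhesion, migration and matrix deposition. YAP and TAZ carry the output of the Hippo pathway. When the LATS kinases phosphorylate them they stay in the cytoplasm, and otherwise they enter the nucleus and bind TEAD transcription factors, which recognise short sequences at genes such as Ctgf, Cyr61 and Ankrd1. In fibroblasts this output is known to follow cell shape, stiffness of the substrate and tension of the actin cytoskeleton. Because YAP and TAZ are regulated largely by phosphorylation and location, the level of their mRNA is a separate quantity from their activity.

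The values are normalized counts per gene, whose sums per library were between 14952367 and 17314953. A value of 16.2 normalized counts corresponds to 1 c.p.m., and the 11877 genes that reached it in at least 3 libraries were tested. All 9 genes passed this filter and lay above it in every library. Senescent replicate 2 and non-senescent replicate 2 stood farthest from the other libraries. Senescent replicate 2 was at least 2 times higher than every other library for 271 genes, 2.28% of those tested, and non-senescent replicate 2 for 253. Cdkn1b, the gene for p27Kip1, had 1427 to 3074 normalized counts in the non-senescent and 1520 to 1699 in the senescent libraries. Whether this row includes transgene reads is not given in the sources used here. All 10 fibroblast markers passed the filter, and their summed level was 1962055 to 2082633 normalized counts in non-senescent and 1278753 to 1594317 in senescent MSFs. Within that list Col1a1, Col1a2, Col3a1, Dcn and Lum were lower and Thy1 higher in every senescent library than in every non-senescent one. Such separation was found for 11.4% of all genes downward and 9.19% upward. Of these markers limma called 0, beside 0.244% of all genes tested. Krt14 of keratinocytes, Adipoq of adipocytes and Emr1 of macrophages were under 1 in every library, but other markers of these cells were not. Krt10 had 41.0 to 59.1 normalized counts, Fabp4 11.3 to 337 and Cd68 49.6 to 352. Csf1r had 73.4 to 75.7 in non-senescent and 90.6 to 226 in senescent MSFs, and Lyz2 35.2 to 62.9 and 103 to 159. Trp63 of keratinocytes had 24.9 to 25.8 in non-senescent and 2.5 to 7.15 in senescent MSFs. The summed endothelial markers, 85.9 to 241 in non-senescent and 15.7 to 35.1 in senescent MSFs, were mostly Kdr in the former, while Cdh5 was under 5 in every library. Kdr had 68.7 to 205 in non-senescent and 4.84 to 14.0 in senescent MSFs (limma adjusted p = 0.0608). With the replicate number as a block in the model, Kdr alone of all these markers was called (limma adjusted p = 0.0488), beside 1.62% of all genes. The summed pericyte and smooth muscle markers were 524 to 816 and 748 to 2694. The part of these markers in the results was not tested. In bulk RNA, fewer cells of a type and less RNA per cell cannot be told apart.

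The promoters are shown first because their sequences do not come from these libraries and TEAD factors are known to bind short sequences near such genes. Cyr61, Ankrd1 and Amotl2 are among the genes as known targets, so a TEAD core in their promoters is not independent of that choice. RefSeq promoter sequences, 250 bases before to 50 after the start of the gene, were matched for 5 of the 9 genes (Cyr61, Yap1, Wwtr1 with 2 start sites, Ankrd1 and Amotl2). The GGAATG core that TEAD factors recognise, searched on both strands, was present in all 6 of these promoters. The 2 Wwtr1 windows overlap and hold the same match, so the 6 promoters stand for 5 genes. The same letters were present in 14.7% of the 32851 promoters of the RefSeq table and, counted by gene, in 16.6% of all genes. Of the other genes in a list of widely used YAP/TAZ targets, 12 had a promoter in the table and 4 of these held the core (Lats2, Axl, Crim1 and Ptpn14), which is 33.3%, against 16.6% of all genes. Of 25 Hippo regulators with a promoter 8 held it, which is 32.0%. A match describes the letters only and not a bound site. The sequences came from RefSeq on GRCm38.p6 and were each found once in mm9, to which the positions refer. In the lines below, capitals mark GGAATG or its reverse complement CATTCC. Cyr61 and Ankrd1 are shown because both were highest in senescent replicate 2, and Amotl2 because it was not. Yap1 was also highest in that library, but its promoter is not shown.
Ankrd1, chr19:36194285-36194584, minus strand: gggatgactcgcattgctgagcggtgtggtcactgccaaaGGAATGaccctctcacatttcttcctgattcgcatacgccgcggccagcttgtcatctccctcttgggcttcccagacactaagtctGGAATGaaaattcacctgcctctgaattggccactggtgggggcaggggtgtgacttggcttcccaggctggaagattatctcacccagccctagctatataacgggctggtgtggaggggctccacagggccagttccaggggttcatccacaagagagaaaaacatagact
Cyr61, chr3:145312900-145313199, minus strand: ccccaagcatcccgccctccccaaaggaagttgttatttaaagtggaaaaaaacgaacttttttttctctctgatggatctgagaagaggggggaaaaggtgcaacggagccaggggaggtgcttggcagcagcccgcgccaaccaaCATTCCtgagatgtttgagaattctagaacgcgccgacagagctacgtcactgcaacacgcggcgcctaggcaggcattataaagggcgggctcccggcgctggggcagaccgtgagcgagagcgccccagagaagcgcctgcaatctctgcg
Amotl2, chr9:102619884-102620183, plus strand: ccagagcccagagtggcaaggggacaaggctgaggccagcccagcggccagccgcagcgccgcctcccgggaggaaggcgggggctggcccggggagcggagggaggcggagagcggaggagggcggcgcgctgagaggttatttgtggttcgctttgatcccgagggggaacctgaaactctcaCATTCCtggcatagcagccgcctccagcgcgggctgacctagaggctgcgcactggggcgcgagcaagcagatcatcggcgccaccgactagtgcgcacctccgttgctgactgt
Ankrd1 held the core at 210 and 123 bases before its start, Cyr61 at 103 and Amotl2 at 65. In Yap1 it began 141 bases before the start, and in Wwtr1 136 or 170 bases before, depending on the start site. These distances count from the RefSeq starts. For Amotl2 the whole window lies inside the annotated gene, which begins at 102619002, so its place relative to the start is less certain. Neither the AP-1 motif TGANTCA, present in 7.81% of all promoters, nor the CArG box bound by SRF, present in 1.63%, had a match in these 6 windows.

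Senescent and non-senescent MSFs were compared to ask whether the CCN and YAP/TAZ genes are part of the altered expression of senescent fibroblasts. Wisp2 was 2.34 times higher in senescent MSFs by the ratio of means, with its 3 senescent values close together, while Ctgf and Ankrd1 were far higher in 1 senescent library than in the other 5 libraries. None of the 9 genes passed the test across all genes (limma on log2(normalized counts + 1), Benjamini-Hochberg adjusted p under 0.05), where 0.244% of the genes tested did (0.168% higher and 0.0758% lower). With the replicate number as a block in the model, again 0 of the 9 passed, beside 1.62% of all genes. At an unadjusted p under 0.05, Wisp1 and Wisp2 were higher and 0 genes lower, where 6.67% of all genes were higher and 6.70% lower (792 and 796 genes, or 1124 and 475 with all libraries set to the same sum). Under the block Wisp2 was higher and Nov lower at that level, beside 8.64% of all genes higher and 8.32% lower. The log2 difference was positive for 8 of the 9 genes, beside 46.2% of all genes, and its median was 0.66, beside −0.033 over all genes tested. This median was 0.20 without senescent replicate 2, 0.35 without non-senescent replicate 3, 1.19 without non-senescent replicate 1 and 0.32 with library weights. The median was −0.23 in the pair of libraries numbered 1, 1.55 in pair 2 and 0.38 in pair 3. The groups did not overlap for Wisp2 and Yap1, both higher in senescent MSFs, and such separation upward was found for 9.19% of all genes.

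**Figure D1:**
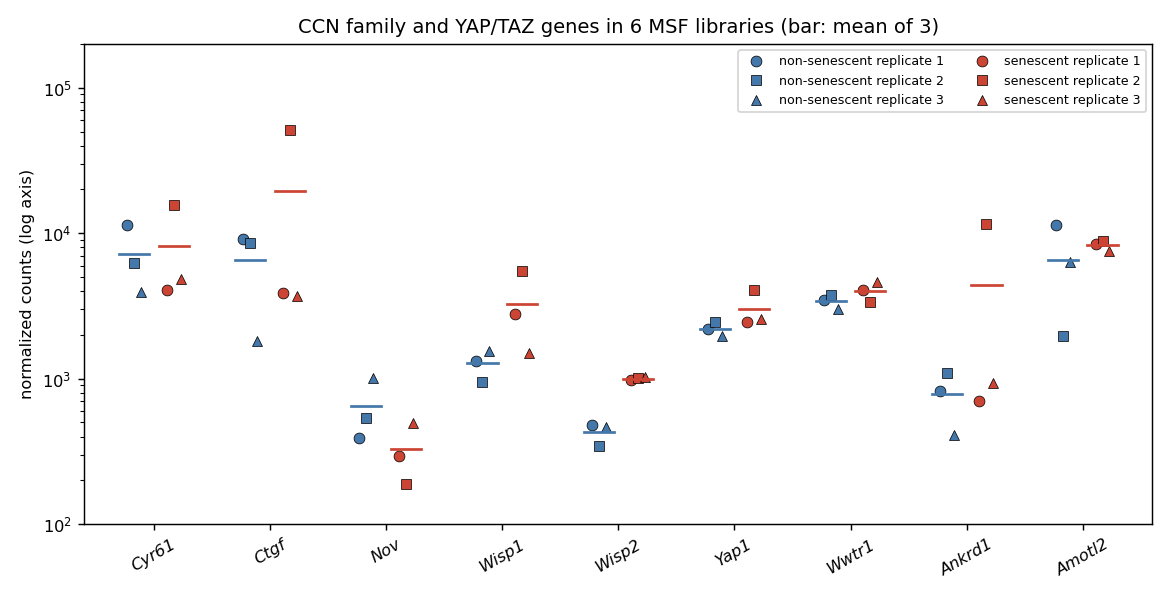
Normalized counts (log axis) of the 9 genes in each of the 6 libraries, with blue points for non-senescent and red points for senescent MSFs, marker shapes for replicates 1 to 3 and bars for the group means. The 3 senescent Wisp2 values lie together at 979 to 1022, above all non-senescent values, while for Ctgf and Ankrd1 senescent replicate 2 lies far above the other 5 libraries.

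Wisp2 (Ccn5; chromosome 2 of mm9, 163646597 to 163654754) encodes the CCN protein that lacks the C-terminal cysteine knot of the other members. Its normalized counts were 479, 342 and 465 in non-senescent replicates 1, 2 and 3 and 979, 1006 and 1022 in senescent replicates 1, 2 and 3. The senescent values lay close together and the groups did not overlap. The mean was 429 ± 75.0 (SD, n = 3) in non-senescent and 1002 ± 21.8 (SD, n = 3) in senescent MSFs. The log2 difference was 1.24 (95% interval 0.80 to 1.68), with an adjusted p of 0.0628 from limma and 0.0509 with the replicate block. In the 3 pairs of same-numbered libraries it was 1.03, 1.55 and 1.13, so Wisp2 was higher in every pair. Leaving out any library kept the difference between 1.09 and 1.33.

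Ctgf (Ccn2; chromosome 10, 24315248 to 24318489), the connective tissue growth factor of wound repair and fibrosis, had 1 senescent library far above the other 5. Its normalized counts were 9177, 8567 and 1827 in non-senescent replicates 1, 2 and 3 and 3883, 51349 and 3723 in the senescent ones. Senescent replicate 2 was 5.60 times higher than the next library, and the other 2 senescent values lay inside the range of the non-senescent ones. The means were 6524 ± 4079 (SD, n = 3) and 19652 ± 27450 (SD, n = 3), and the log2 difference of 0.79 had a 95% interval from −1.81 to 3.39 (limma adjusted p = 0.804). Without senescent replicate 2 the log2 difference was −0.46 (limma adjusted p = 0.813). Of the exon bases of Ctgf, 22.9% are shared with Gm15270 on the opposite strand, and the strand setting of the counting is not given in the sources used here.

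Cyr61 (Ccn1; chromosome 3, 145309935 to 145312949) encodes an adhesive CCN protein that is an immediate early gene product in fibroblasts. It had 11369, 6195 and 3922 normalized counts in non-senescent replicates 1, 2 and 3 and 4095, 15611 and 4878 in the senescent ones. Senescent replicate 2 was again the highest library, 1.37 times above the next, and the groups overlapped. The log2 difference was 0.058 (95% interval −1.32 to 1.43, limma adjusted p = 0.978). It was −1.47 in pair 1 and 1.33 in pair 2, and without senescent replicate 2 it was −0.54 over the remaining libraries.

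Ankrd1 (chromosome 19, 36186455 to 36194334), a cardiac and muscle ankyrin repeat protein also induced by tension, showed the same single high library. Its normalized counts were 826, 1098 and 413 in non-senescent replicates 1, 2 and 3 and 704, 11498 and 928 in the senescent ones. Senescent replicate 2 was 10.5 times the next highest library. The log2 difference of 1.44 had a 95% interval from −0.95 to 3.84 (limma adjusted p = 0.593) and was 0.17 without senescent replicate 2. In that library Acta1, the skeletal muscle actin gene, had 1404 normalized counts against 21.1 to 56.2 in the other 5, while the other 7 skeletal muscle markers were under 20 in every library. Myh11, a smooth muscle myosin gene, had 1568 there, 523 and 479 in senescent replicates 1 and 3, and 94.4 to 227 in the non-senescent libraries. Its groups did not overlap, as for 9.19% of all genes upward, and its log2 difference was 2.26 (standard error 0.52, limma adjusted p = 0.156). The part of these genes and of the library itself in the Ctgf and Ankrd1 values was not tested.

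Amotl2 (chromosome 9, 102619002 to 102623051 in the table), an angiomotin family scaffold that binds YAP and is itself a YAP target, turned on a different library. It had 11465, 1969 and 6296 normalized counts in non-senescent replicates 1, 2 and 3 and 8459, 8800 and 7494 in the senescent ones. Non-senescent replicate 2 was 3.20 times below the next library, and the 3 senescent values lay close together. The log2 difference was 0.66 (95% interval −0.71 to 2.03, limma adjusted p = 0.673), and −0.046 without non-senescent replicate 2.

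Wisp1 (Ccn4; chromosome 15, 66722882 to 66754763), a CCN protein known as a target of Wnt signalling, had 1330, 944 and 1562 normalized counts in non-senescent replicates 1, 2 and 3 and 2789, 5529 and 1502 in the senescent ones. Senescent replicates 1 and 2 lay above all non-senescent libraries and senescent replicate 3 inside their range. The log2 difference was 1.19 (95% interval 0.11 to 2.27), with an adjusted p of 0.329 from limma, and was 0.71 without senescent replicate 2 and 0.36 with library weights. With the replicate block the interval included 0 (−0.051 to 2.42), and the difference was 1.07 and 2.55 in pairs 1 and 2 and −0.057 in pair 3. Nov (Ccn3; chromosome 15, 54577257 to 54585594), a CCN protein known to oppose actions of CTGF, was the 1 gene of the 9 with a negative difference. Its normalized counts were 394, 540 and 1019 in non-senescent replicates 1, 2 and 3 and 295, 188.5 and 495 in the senescent ones. Nov was lower in the senescent library of all 3 pairs, by log2 differences of −0.42, −1.51 and −1.04, although the groups overlapped. Its log2 difference was −0.99 (95% interval −2.05 to 0.07) with a limma adjusted p of 0.405, and under the replicate block the standard error was 0.25 and the adjusted p 0.158. Senescent replicate 2 was the lowest library for Nov. It was the highest for 5 of the 9 genes (Ctgf, Cyr61, Wisp1, Yap1 and Ankrd1), beside 25.7% of all genes tested. The sixth CCN gene, Wisp3, was listed at 0 in the senescent libraries and at 0 to 3.65 in the non-senescent ones, and did not pass the filter.

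Yap1 and Wwtr1, the coactivators themselves, varied less between libraries than Ctgf, Cyr61, Ankrd1 and Amotl2. Yap1 (chromosome 9, 7932003 to 8004596) had 2185, 2455 and 1975 normalized counts in non-senescent replicates 1, 2 and 3 and 2467, 4068 and 2579 in the senescent ones. The groups did not overlap, but senescent replicate 1 and non-senescent replicate 2 were nearly equal. Its log2 difference was 0.43 (95% interval −0.12 to 0.98, limma adjusted p = 0.487) and 0.20 without senescent replicate 2. Wwtr1 (chromosome 3, 57259571 to 57379750) had 3474, 3781 and 3021 normalized counts in non-senescent replicates 1, 2 and 3 and 4070, 3381 and 4608 in the senescent ones, and its groups overlapped. Its log2 difference was 0.23 (95% interval −0.22 to 0.67, limma adjusted p = 0.657). Per kb of exon, Wwtr1 was 2.96 to 3.46 times Yap1 in 5 libraries and 1.61 times in senescent replicate 2, where Yap1 was at its highest.

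**Figure D2:**
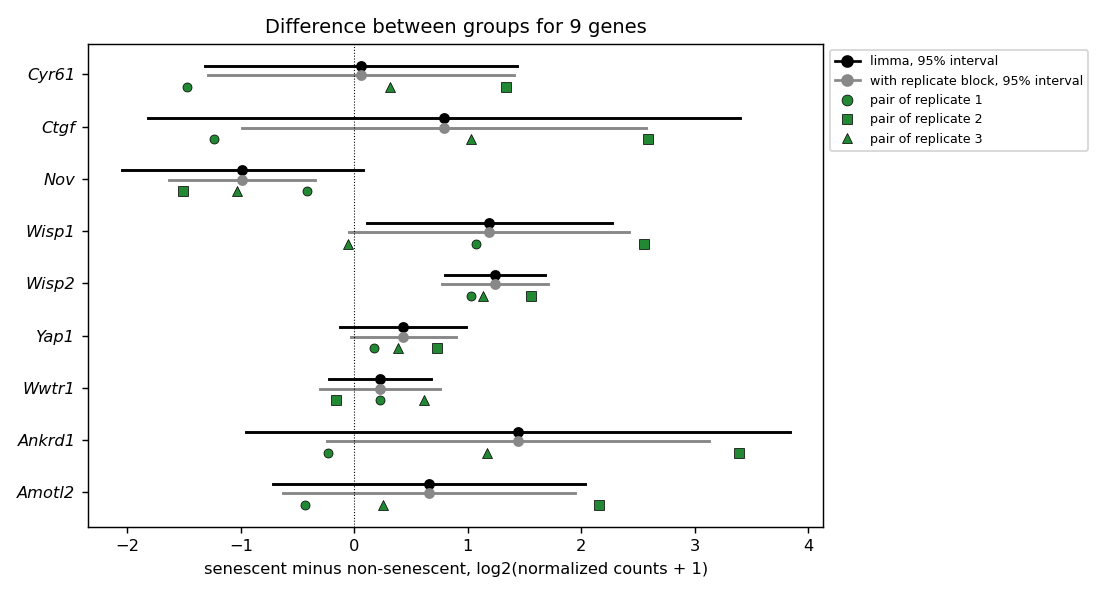
Difference between senescent and non-senescent MSFs in log2(normalized counts + 1) for each gene, with 95% intervals from limma without (black) and with (grey) the replicate block, and green marks for the 3 pairs of same-numbered libraries. The 3 pairs of Wisp2 lie together near the estimate of 1.24, while those of Ctgf, Cyr61, Ankrd1, Amotl2, Wisp1 and Wwtr1 lie on both sides of 0.

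Leaving out each library in turn showed which values rest on 1 sample. The log2 difference of Ankrd1 ranged from 0.17 to 2.18 and that of Ctgf from −0.46 to 1.43 over the 6 fits. For Wisp2 all 6 fits stayed close to the full estimate, with adjusted p-values from limma of 0.0871 to 0.267.

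**Figure D3:**
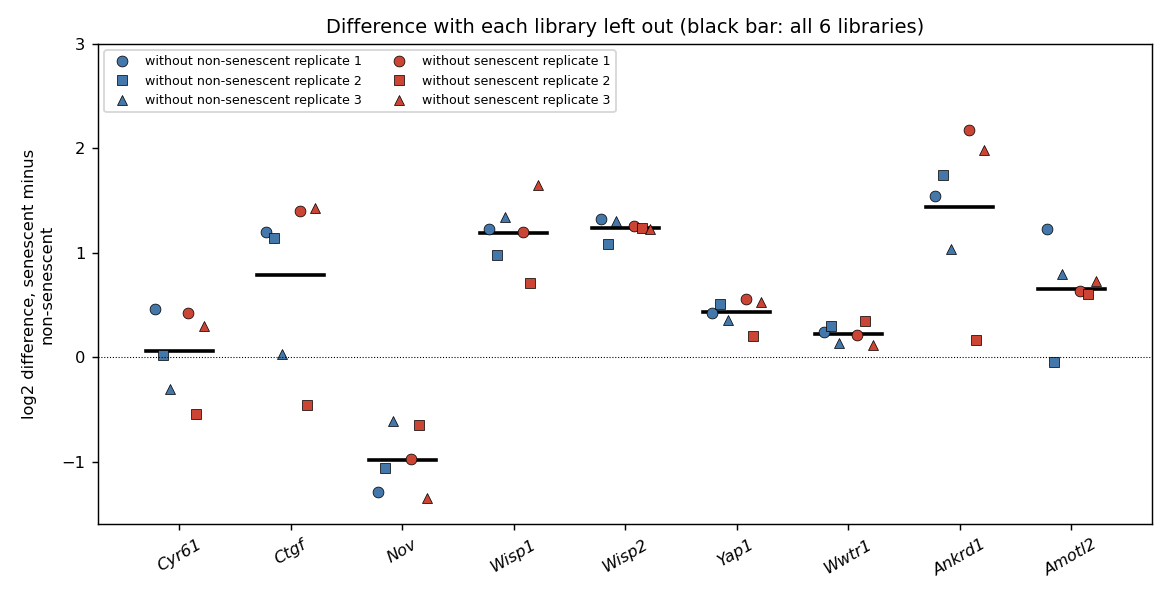
Log2 difference between the groups with all 6 libraries (black bars) and with each library left out in turn (points coloured by the group of the library left out, shaped by its replicate). Without senescent replicate 2 the Ctgf and Cyr61 differences are below 0 at −0.46 and −0.54, and the Wisp2 points stay between 1.09 and 1.33.

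Levels were compared between genes as normalized counts per kb of annotated exon, since longer transcripts collect more reads. In non-senescent MSFs the order of the means was Cyr61 with 3531 ± 1882 (SD, n = 3), Ctgf with 2620 ± 1638, Amotl2 with 1046 ± 756, Wwtr1 with 717 ± 80.1, Ankrd1 with 441 ± 196, then Yap1, Wisp1, Nov and Wisp2 between 223 and 238 per kb. Of the 8 neighbouring pairs in this order, Wwtr1 and Ankrd1 alone had ranges that did not overlap. In senescent MSFs the order of the means was Ctgf, Cyr61, Ankrd1, Amotl2, Wwtr1, Wisp1, Wisp2, Yap1 and Nov. Neighbours did not overlap for Amotl2 and Wwtr1, Wisp2 and Yap1, and Yap1 and Nov. Ctgf lay above Cyr61, Ankrd1 above Amotl2 and Wisp1 above Wisp2 in senescent replicate 2 alone. Ankrd1 had 6514 per kb there, but 399 and 526 in senescent replicates 1 and 3, below Amotl2 and Wwtr1. Among the senescent means Wisp2, at 521 ± 11.4 per kb (SD, n = 3), lay above Yap1 at 328 ± 96.5 and Nov at 114 ± 54.3. Cyr61 and Ctgf together made up 75.2% to 94.7% of the per kb sum of the 5 CCN genes in the 6 libraries. Wisp2 made up 10.8% and 10.9% of it in senescent replicates 1 and 3, 1.75% in senescent replicate 2, and 2.51% to 6.81% in the non-senescent libraries. For Amotl2 and Wisp2 the listed position is shorter than the annotated gene, which ends at 102635748 for Amotl2 and at 163658882 for Wisp2. Their lengths, and with them their places in the order and the shares of Wisp2, are less certain.

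**Figure D4:**
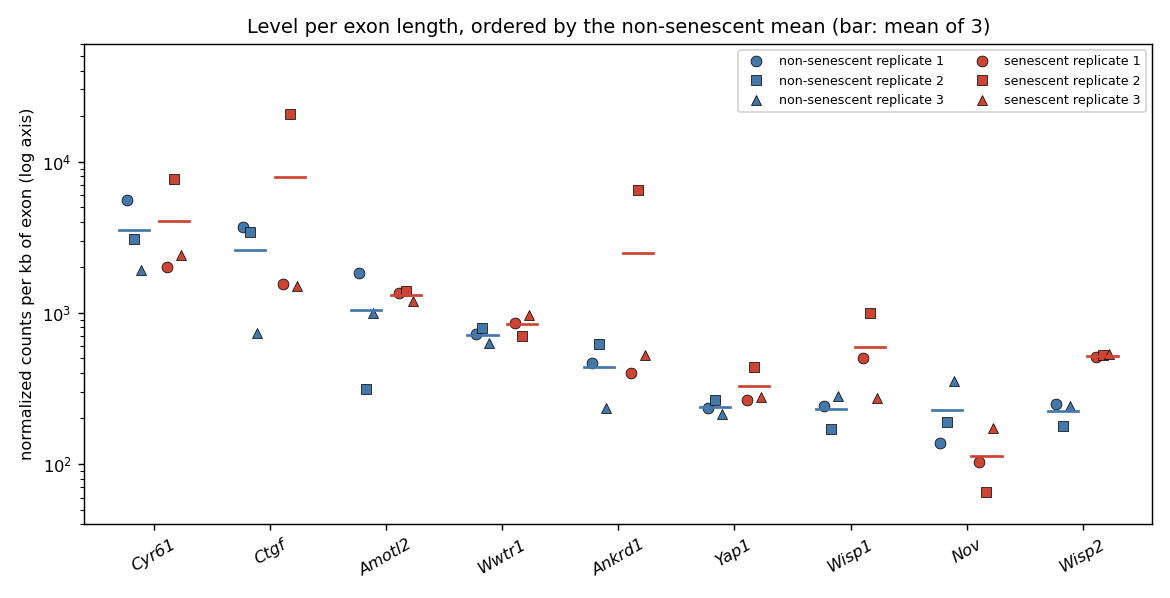
Normalized counts per kb of annotated exon (log axis) for the 9 genes, ordered by the non-senescent mean, with points for libraries and bars for group means. Cyr61 and Ctgf are the most abundant CCN genes in each group, and Wisp2 lies at 223 per kb in non-senescent and 521 in senescent MSFs.

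The wider set of YAP/TAZ targets was read from a list of 22 genes that holds Ctgf, Cyr61, Ankrd1 and Amotl2. Of these 22 genes, 21 passed the filter, and limma called 0 of them with or without the replicate block, beside 0.244% and 1.62% of all genes. At an unadjusted p under 0.05, 4 were higher (Ccdc80, Nt5e, Ptpn14 and Nuak2) and 0 lower, beside 6.67% and 6.70% of all genes. Under the block 6 were higher and 0 lower, beside 8.64% and 8.32% of all genes. The log2 difference was positive for 17 of the 21, with a median of 0.41 beside −0.033 over all genes, and for the 17 genes that are not described above the median was 0.39. The median of the 21 was 0.17 without senescent replicate 2, 0.039 with library weights, 0.60 to 0.64 without non-senescent replicate 1 or senescent replicate 3, and −0.010 with the block and without replicate 2. Senescent replicate 2 was the highest library for 13 of the 21 genes, where it was highest for 25.7% of all genes tested. It was at least 2 times above every other library for Ctgf, Ankrd1 and Crim1, beside 2.28% of all genes. Crim1, a transmembrane protein that tethers growth factors, had 2284, 1791 and 1363 normalized counts in the non-senescent libraries and 1712, 7898 and 2296 in the senescent ones. By pairs the median over the list was −0.14, 1.03 and 0.32 in replicates 1, 2 and 3. Nt5e, the ecto-enzyme CD73 that makes adenosine, had the largest positive difference with a log2 value of 1.45 (standard error 0.56, limma adjusted p = 0.327). Its normalized counts were 23.9, 88.7 and 43.2 in non-senescent and 155, 182 and 69.5 in senescent replicates 1, 2 and 3. Gadd45a, a growth arrest and DNA damage gene, had the most negative one at −0.83 (standard error 0.40, limma adjusted p = 0.432). Rbms3, an RNA-binding protein, followed at −0.38 (standard error 0.31, limma adjusted p = 0.650). The groups did not overlap for Ccdc80 and Ptpn14, both higher, and for Gadd45a, lower, beside 9.19% and 11.4% of all genes.

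**Figure D5:**
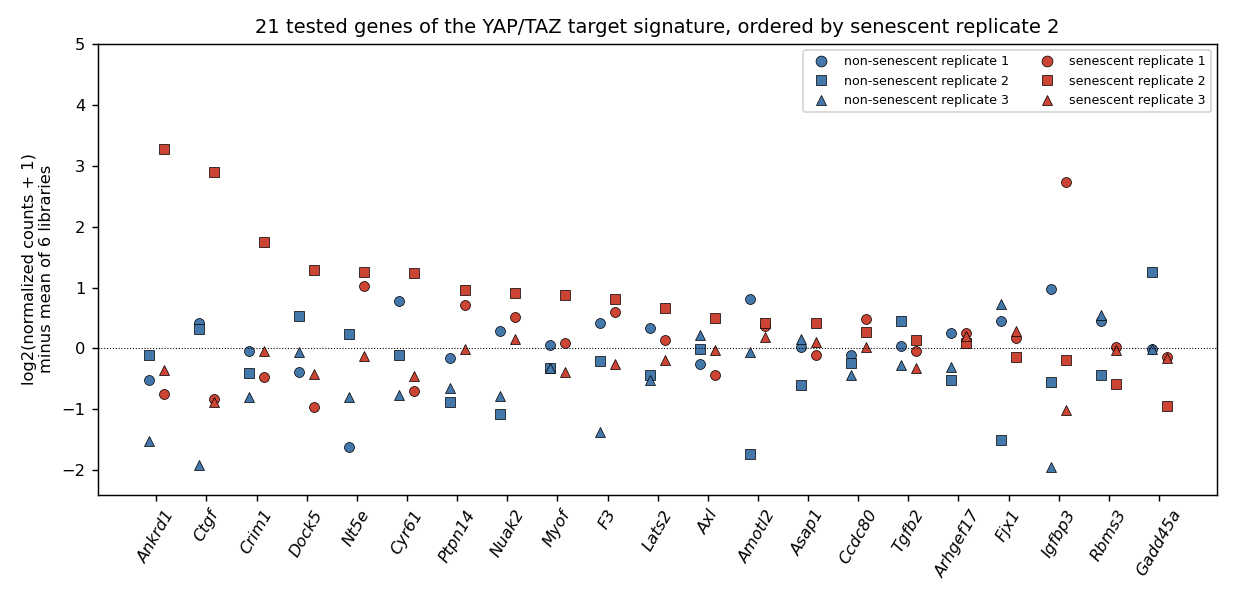
Log2(normalized counts + 1) of the 21 tested genes of the YAP/TAZ target list, each minus its mean over the 6 libraries, with the genes ordered by their value in senescent replicate 2 (red squares). That library is the highest for 13 of the 21 genes, and the other senescent libraries (red circles and triangles) lie among the non-senescent ones (blue) for Ctgf and Ankrd1.

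Upstream of YAP and TAZ, 29 of 31 listed Hippo kinases and regulators were tested (Frmd1 and Dchs2 were not analysed here). Without and with the block limma called 0 of them, beside 0.244% and 1.62% of all genes. At an unadjusted p under 0.05, 3 were higher (Wwc1, Dlg5 and Ptpn14) and Dchs1 lower, beside 6.67% and 6.70% of all genes. Under the block 4 were higher and 3 lower, beside 8.64% and 8.32% of all genes. The groups did not overlap for 5 higher genes and 1 lower gene, beside 9.19% and 11.4% of all genes. The median log2 difference was 0.19, beside −0.033 over all genes. It was 0.036 without non-senescent replicate 2, 0.12 without senescent replicate 3 and 0.072 with library weights. Ptpn14, a phosphatase that binds YAP and holds it back, had 1331, 810 and 950 normalized counts in non-senescent and 2430, 2889 and 1476 in senescent replicates 1, 2 and 3. Its groups did not overlap, and its log2 difference was 1.11 (standard error 0.30), with an adjusted p of 0.207 from limma. Wwc1 (KIBRA), which activates the LATS kinases, had 61.7, 42.9 and 51.3 normalized counts in non-senescent and 116, 150 and 69.1 in senescent replicates 1, 2 and 3, again without overlap. Its log2 difference was 1.03 (standard error 0.35, limma adjusted p = 0.278). Dchs1, a giant cadherin and ligand of FAT4, had a log2 difference of −1.07 (standard error 0.44, limma adjusted p = 0.358), and that of Amotl1 was −0.73 (standard error 0.33, limma adjusted p = 0.401).

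Of the TEAD factors and Vgll cofactors, 6 of 8 were tested and limma called 0 of them, beside 0.244% of all genes. At an unadjusted p under 0.05 the count was also 0, beside 13.4% of all genes in either direction. Tead1 had 2889 to 7177 normalized counts in non-senescent and 5259 to 8202 in senescent libraries, and a log2 difference of 0.61 (standard error 0.35, limma adjusted p = 0.515). Vgll3, a TEAD cofactor, had 4995, 1017 and 2516 normalized counts in non-senescent and 3932, 3475 and 3642 in senescent replicates 1, 2 and 3, with its lowest value in the same library as Amotl2. Tead2 had a log2 difference of −0.41 (standard error 0.35) and Vgll4 one of −0.11 (standard error 0.29).

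Among receptors and co-receptors of CCN proteins, 12 of 15 were tested and limma called 0, beside 0.244% of all genes. At an unadjusted p under 0.05 the count was 0, beside 13.4% of all genes in either direction. Under the block 2 were higher at that level (Itga2 and Notch1), beside 8.64% of all genes. Itga2, a collagen-binding integrin chain, had a log2 difference of 1.61 (standard error 0.69) with a limma adjusted p of 0.379, which was 0.119 with the block. Notch1 had a log2 difference of 0.59 (standard error 0.36). Itga5, a chain of the fibronectin receptor, had 24416 normalized counts in senescent replicate 2 against 3066 to 7581 in the other 5 libraries. Itgb2 had a log2 difference of −0.73 (standard error 0.50) and Lrp6 one of −0.21 (standard error 0.39).

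The genes whose profiles over the 6 libraries were most like those of Ankrd1 and Wisp2, the genes with the largest differences, were found by the root mean square difference of centred log2 values. For Ankrd1 these were Tnfrsf12a, Nipal1 and Nup62cl, at 0.34, 0.44 and 0.45. Tnfrsf12a, the receptor of TWEAK, had 2898 normalized counts in senescent replicate 2 and 140 to 527 in the others. For Wisp2 they were Dusp28, Atp2b4 and Col10a1, at 0.097, 0.13 and 0.14. Atp2b4, a plasma membrane calcium pump, had 638, 506 and 610 normalized counts in non-senescent and 1545, 1721 and 1571 in senescent replicates 1, 2 and 3.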

How the data were processed

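Poly(A) RNA of 3 senescent and 3 non-senescent MSF samples was measured. Per the paper and the labels, the authors aligned the reads with TopHat (mm9), obtained gene counts by HTSeq and applied TMM normalization in edgeR, with no tool versions given in the sources used here. The authors deposited 1 table of normalized counts, a signal per gene and library whose scaling is not stated. Most values are not whole numbers, so read totals are unknown, no count model was run and no counting intervals are given. The smallest values above 0 were 0.36 to 0.89, and differences of that size rest on few reads. Scaling to a common library could shrink or shift differences between libraries.

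Differences of log2(value + 1) were tested with limma 3.58.1 in R 4.3.3 (moderated model with a trend in intensity). Genes had to reach 1 c.p.m. in 3 or more libraries, with Benjamini-Hochberg adjustment and a threshold of 0.05. The added 1 makes differences of low genes smaller. Same-numbered libraries deviated together from their group means, with r across genes of 0.24, 0.29 and 0.42 for replicates 1, 2 and 3. Between other numbers r was −0.31 to 0.04. Centring each group on its mean makes these values negative on average when the former are positive, so the contrast is partly built in. A fit with the replicate number as a block is given as well. The pairing comes from the numbers in the labels. Exon lengths came from the mm9 annotation, and figures were made with matplotlib 3.10.9.

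Alternatives were other pseudocounts (0.1 and 10), scalings and filters, the replicate block, library weights and leaving out each library. The block without each replicate number was added after seeing the data. The 9 genes and all lists were chosen with earlier results of these data known. All 9 are named. Of each list, called genes are named (up to 5) or, where fewer than 3 were called, up to 2 genes with the largest differences in each direction. Likeness of profile is given for the 2 members with the largest absolute difference, 3 genes each. Ccdc80, Nuak2, Dlg5, Crim1, Itga5, Lats2, Axl and the marker genes named were singled out after their values were seen, except where the rule also names them.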

Additional observations from a re-analysis of the deposited data

How the results depend on the processing

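No alternative turned the direction of Nov, Wisp1, Wisp2, Yap1, Wwtr1 or Ankrd1 in the 18 fits run. The log2 difference of Cyr61 turned to −0.37 with library weights, to −0.54 without senescent replicate 2, to −0.31 without non-senescent replicate 3, and to −0.58 and −0.070 with the replicate block and without replicate 2 or 3. That of Ctgf turned to −0.46 without senescent replicate 2 and to −0.11 with the replicate block and without replicate 2. That of Amotl2 turned to −0.046 without non-senescent replicate 2 and to −0.094 with the replicate block and without replicate 2. Over the fits that leave out 1 library the log2 difference ran from −0.54 to 0.46 for Cyr61, from −0.46 to 1.43 for Ctgf and from −0.046 to 1.23 for Amotl2. The cause was not tested.

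Of the 9 genes, 1 (Wisp2) was called higher by limma with library weights (adjusted p = 0.00672) and 1 (Wisp2) with the replicate block without replicate 2 (adjusted p = 0.0150), and 0 in the other 16 alternatives. The adjusted p of Wisp2 ranged from 0.00672 to 0.267. In the same block fit without replicate 2, 2 YAP/TAZ targets (Igfbp3 and Ptpn14), 2 Hippo genes (Map4k4 and Ptpn14) and 2 receptors (Itga2 and Notch1) were called higher, beside 4.10% of all genes in that fit, and with library weights 2 receptors were called (Itga2 higher, Itgb2 lower), beside 3.25% of all genes higher and 3.00% lower. The replicate block with all libraries changed no call on the genes of these lists.

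Over all genes 20 were called higher and 9 lower, against 119 and 73 with the replicate block and 386 and 356 with library weights. With the block and without replicate 1, 2 or 3 the counts were 85 and 57, 472 and 383, and 52 and 36. Without a filter they were 12 and 5, with a mean of at least 5 c.p.m. 7 and 4, and without single libraries 0 to 6 and 0 to 9, which leaves fewer samples. Setting all libraries to the same sum moved the median log2 difference of all genes from −0.033 to 0.08 and the genes at an unadjusted p under 0.05 from 792 higher and 796 lower to 1124 and 475. Pseudocounts, scalings and filters changed no direction of the 9 genes.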

Other observations

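Some genes close in profile to other members are given here, chosen after the values were seen and with no test of what they share. Nearest to Cyr61 was Actg1, a cytoplasmic actin, at a root mean square difference of 0.16 in centred log2 values over the 6 libraries, followed by Tpm4, a tropomyosin, at 0.20. Actg1 had 46517, 30438 and 21368 normalized counts in non-senescent replicates 1, 2 and 3 and 23221, 72631 and 22290 in the senescent ones, so its highest library was also senescent replicate 2. Nearest to Amotl2 was Vgll3 at 0.14, with Slc10a3 at 0.22 and Phldb2 at 0.24. Nearest to Ctgf was Tnfrsf12a at 0.38, which was also the nearest gene to Ankrd1. With 6 libraries and 11877 genes, close profiles are found for many genes, and these are descriptions of the libraries.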
